A study of Mus musculus with 58 samples.

Results

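The members described here are 39 mouse genes of the lysosomal membrane, chosen by symbol: 19 subunits of the vacuolar proton pump (V-ATPase) and 20 lysosomal channels and transporters. They were looked up among the 24940 genes of the table that covers the age series, where all 39 were listed, and among the 10277 and 10589 genes of the 2 tables of antisense experiments, where 35 were listed. Atp6v0d2, Atp6v0e2, Mcoln2 and Mcoln3 are not listed in the antisense tables. The data are 58 polyA RNA-seq libraries of microglia, the resident macrophages of the brain, sorted from the forebrain of C57BL/6 mice. The sort kept DAPI-negative cells that were CD11b+, CD45low and CX3CR1+.

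In the age series, wild-type (WT) mice were compared with mice lacking Sgsh (SgshKO), the lysosomal sulfatase that removes sulfate from heparan sulfate. There were 3 WT and 4 SgshKO libraries at 3 weeks, 2 and 2 at 4 months, and 4 and 7 at 8 months. In WT mice, 1 injection into the cerebral ventricle delivered 1 of 5 agents: PBS, a non-targeting control antisense oligonucleotide (ASO; the control is labelled ntc), a Mitf ASO, a Tfeb ASO or a Tfe3 ASO. Cells were collected 14 days later, with 4 libraries per group. In SgshKO mice, 8 libraries received the ntc ASO and 8 received the Mitf and Tfe3 ASOs together. All 16 of those libraries carry the knockout, so that experiment has no WT arm. The labels give no age for the injected mice, no sex, and no statement that each library came from a separate animal. The p-values therefore measure the spread between libraries, which may be in part technical.

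The V-ATPase is a rotary machine with a cytosolic V1 sector that hydrolyses ATP and a membrane V0 sector that moves protons. The acid it makes inside the lysosome activates hydrolases, and the proton gradient drives exchangers and carriers that move chloride, amino acids, nucleosides and sugars. In microglia, lysosomes digest engulfed material. MITF, TFEB and TFE3 are related basic helix-loop-helix factors that bind E-box sequences in the promoters of lysosomal genes. The palindrome TCACGTGA is an extended E-box known in such promoters.

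Promoter windows from RefSeq (GRCm38.p6, from 250 bases before to 50 bases after a transcript start) were matched by symbol for 31 of the 39 members. The extended E-box TCACGTGA was present on either strand in 8 of the 31 (25.81%) and in 304 of 27025 genes (1.125%). The shorter E-box CACGTG, which every TCACGTGA contains, was present in 10 of the 31 (32.26%) and in 2187 of the 27025 (8.093%). The M-box TCATGTG was present in 3 of the 31 (9.677%) and in 1165 of the 27025 (4.311%). The 8 genes with the extended E-box were Atp6v1a, Atp6v0d1, Atp6v0e, Mcoln1, Clcn6, Clcn7, Slc36a1 and Cln3. The following stretches of 80 bases are each upstream of the transcript start and within the window. They belong to the catalytic pump subunit, a V0 subunit with 2 short E-boxes, and some of the channel and transporter genes described below. Mcoln2 and Clcn6, which also hold upstream E-boxes, are not shown. Each stretch is read 5′ to 3′ on the gene's own strand, and capitals mark the E-box or extended E-box.
Atp6v1a, chr16:44139348-44139427, minus strand: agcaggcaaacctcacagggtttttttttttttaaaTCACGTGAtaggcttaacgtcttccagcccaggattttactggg
Atp6v0b, chr4:117887330-117887409, minus strand: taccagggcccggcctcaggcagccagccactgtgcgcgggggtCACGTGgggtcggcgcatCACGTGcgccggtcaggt
Mcoln1, chr8:3500424-3500503, plus strand: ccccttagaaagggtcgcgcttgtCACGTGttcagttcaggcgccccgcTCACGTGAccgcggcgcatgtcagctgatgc
Clcn7, chr17:25133311-25133390, plus strand: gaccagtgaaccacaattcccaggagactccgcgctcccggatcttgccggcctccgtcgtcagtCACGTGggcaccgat
Slc36a1, chr11:55204260-55204339, plus strand: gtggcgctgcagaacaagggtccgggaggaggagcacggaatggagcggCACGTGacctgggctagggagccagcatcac
Cln3, chr7:126583329-126583408, minus strand: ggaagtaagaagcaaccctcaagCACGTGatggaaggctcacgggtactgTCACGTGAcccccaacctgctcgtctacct
In Clcn7 the extended E-box lies after the transcript start, outside the stretch shown, and in Slc36a1 it spans the start, so only its first bases are shown, in lower case. The Cln3 stretch precedes an alternative RefSeq start that lies within the gene as the count table places it. A match describes these letters only and is not a measurement of binding.

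Sgsh transcripts were at 23.7 ± 2.99 CPM (SD, n = 3) in WT and 19.0 ± 3.87 CPM (n = 4) in SgshKO at 3 weeks, 35.03 ± 6.13 and 26.6 ± 5.27 CPM (n = 2 each) at 4 months, and 44.4 ± 12.3 (n = 4) and 26.6 ± 4.75 CPM (n = 7) at 8 months. The difference was called only at 8 months (log2 fold change -0.74 ± 0.16 SE, edgeR adjusted p = 0.000583). The labels used here do not describe the allele, so this transcript level does not check them. Library totals ran from 8191508 to 27106584 counts in the age series, from 14372015 to 30378870 in the WT antisense experiment and from 12517838 to 30431437 in the SgshKO antisense experiment. All 8 microglia markers were detected in every group. Their summed level was lower in SgshKO than in WT at each age, at 29936 to 33338 counts scaled by library size (CPM) against 37954 to 45578 at 8 months. A list of 8 neutrophil genes summed to at most 7.7 CPM in every WT library. It reached 3014 and 14826 CPM in the SgshKO 4-month libraries and 435 to 5834 CPM in those at 8 months, against 1.7 to 30.8 CPM at 3 weeks. The 6 border macrophage markers summed to 15.8 to 32.1 CPM in WT and 56.3 to 105 CPM in SgshKO at 8 months. At that age 5 astrocyte markers summed to 2.86 to 4.51 CPM and 11.7 to 17.96 CPM. The 4 endothelial markers summed to 42.5 to 56.9 CPM in WT, where Ly6c1 was at 0, and to 13.8 to 26.4 CPM in SgshKO, where Cldn5 was at 0. The 5 sex-linked transcripts summed to 225 to 327 CPM in the WT libraries and 192 to 1626 CPM in the SgshKO libraries at 8 months. With Ddx3y minus Xist in the model, 20 members were higher and 1 lower at 3 weeks, 14 and 1 at 4 months, and 19 and 4 at 8 months. The part of the other marker lists in the results below was not tested, except that leaving out the 2 SgshKO 8-month libraries highest in neutrophil genes left 21 members higher and 3 lower. In bulk RNA, fewer cells of a type and less RNA per cell cannot be told apart.

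Most proton pump genes were called higher in SgshKO than in WT microglia at each of the 3 ages. This was most even in the V1 sector, while the V0 sector was mixed. At 3 weeks, 13 of 19 pump genes were higher and 1 was lower, and 7 of 20 channels and transporters were higher and none was lower (edgeR quasi-likelihood test, Benjamini-Hochberg adjusted p under 0.05 over 14309 genes). Over all genes tested, 5.31% were called higher and 3.72% lower at that age. At 4 months, 11 pump genes were higher and 1 lower, and 3 channels and transporters were higher, against 10.3% of all genes higher and 9.26% lower. At 8 months, 12 pump genes were higher and 1 lower, and 9 channels and transporters were higher and 3 lower, against 21.6% and 18.9% of all genes. The median log2 fold change of the pump genes was 0.51, 0.54 and 0.76 at the 3 ages and that of the channels and transporters 0.26, 0.02 and 0.17. The median of all genes was -0.02, 0.02 and 0.02.

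The deposited TPM values (transcript levels per length) scale the libraries differently and moved the median of all genes to -0.06, -0.12 and -0.14. Relative to that shift, the pump median was 0.52, 0.56 and 0.75 and the channel and transporter median 0.20, 0.03 and 0.10. Without subtracting it, the channel and transporter median was -0.09 at 4 months and -0.04 at 8 months, so its direction turned with the scaling. With limma on log2(TPM + 1), 35 members were tested. The calls were 18 higher and 1 lower at 3 weeks, 13 and 3 at 4 months, and 16 and 6 at 8 months. Over all genes in that fit, 612 were higher and 774 lower at 3 weeks, 1277 and 1900 at 4 months, and 2053 and 4066 at 8 months. Lower calls were thus the more frequent over all genes on this scale. DESeq2 called 19 higher and 1 lower, 15 and 3, and 21 and 4. At an unadjusted p under 0.05 in edgeR, no channel or transporter was lower at 3 weeks, since the 1 member lower there was a pump gene.

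**Figure D1:**
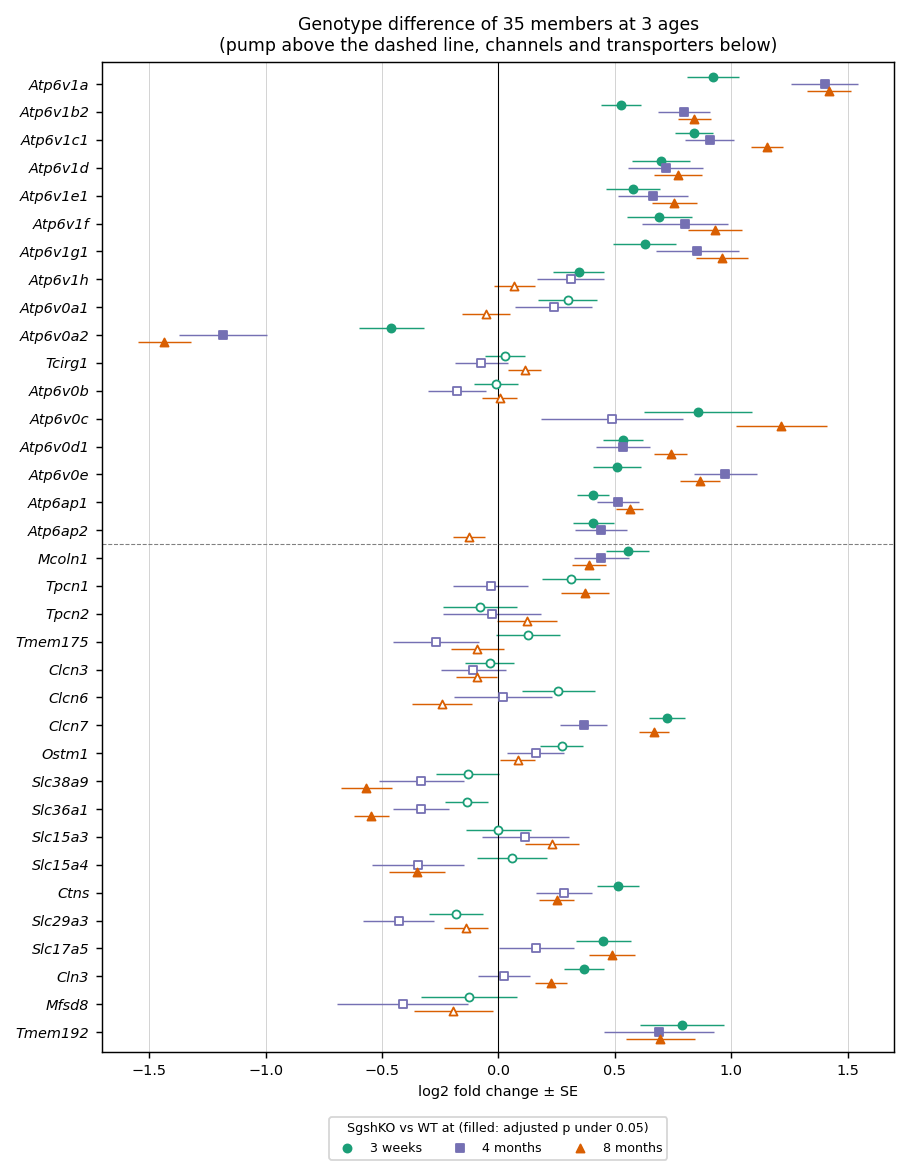
Log2 fold change with its SE for 35 members (all but the 4 with few counts) in SgshKO against WT microglia at 3 weeks, 4 months and 8 months, with pump subunits and channels or transporters apart; filled points passed the edgeR test at an adjusted p under 0.05. Most V1 subunits lie above 0 at every age, and Atp6v0a2 lies below 0 at every age.

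In the V1 sector, 8 of 8 subunits were higher at 3 weeks, 7 of 8 at 4 months and 7 of 8 at 8 months, with median log2 fold changes of 0.66, 0.80 and 0.89. Atp6v1a encodes the catalytic A subunit and lies at chr16:44085404-44139259 (mm10). Its level was 79.1, 74.9 and 89.7 CPM in the WT libraries at 3 weeks and 177, 150, 147 and 141 CPM in SgshKO. At 4 months it was 91.1 and 76.4 CPM in WT and 215 and 227 CPM in SgshKO. At 8 months it was 74.6, 59.8, 60.6 and 80.7 CPM in WT, and in SgshKO 164 at the lowest, 189 at the median and 203 at the highest. The genotypes did not overlap at any age, which was also so for 22.5% of all genes at 3 weeks, 58.1% at 4 months and 25.2% at 8 months. The log2 fold change was 0.92 ± 0.11 (SE; edgeR adjusted p = 2.44e-06) at 3 weeks, 1.40 ± 0.14 (1.89e-07) at 4 months and 1.42 ± 0.09 (1.09e-11) at 8 months.

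Atp6v1c1, the C subunit that links the stator stalk to the V0 sector, was at 95.6, 92.9 and 81.5 CPM in WT and 171, 164, 158 and 150 CPM in SgshKO at 3 weeks. The 8-month values were 108, 91.2, 91.6 and 96.6 CPM in WT and between 200 and 226 CPM in SgshKO, with a median of 217. Every SgshKO library was above every WT library of its age. The log2 fold change was 0.84 ± 0.08 (edgeR adjusted p = 8.13e-08), 0.91 ± 0.10 (8.72e-07) and 1.15 ± 0.07 (1.08e-12). Atp6v1b2, the B subunit that completes the catalytic ring, was at 132, 146 and 158 CPM in WT and 214, 211, 203 and 211 CPM in SgshKO at 3 weeks. It was at 110 to 140 CPM in the 4 WT and 202 to 233 CPM in the 7 SgshKO libraries at 8 months. These groups were apart as well, with log2 fold changes of 0.53, 0.80 and 0.84.

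The smaller subunits of the central and peripheral stalks, Atp6v1d, Atp6v1e1, Atp6v1f and Atp6v1g1, were called higher at every age, with log2 fold changes from 0.58 to 0.96. Atp6v1h, the regulatory H subunit, was the exception among the 8. It was at 34.7, 36.1 and 30.4 CPM in WT and 42.1, 45.3, 41.6 and 42.2 CPM in SgshKO at 3 weeks (log2 fold change 0.34, edgeR adjusted p = 0.0481). At 8 months it was at 32.2 to 44.5 CPM in WT and 36.6 to 43.1 CPM in SgshKO, which overlap (0.07, adjusted p = 0.581). Its call at 3 weeks was lost with DESeq2's size factor method in edgeR (adjusted p = 0.0524), without the filter on low counts (0.101) and on TPM (0.0717).

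**Figure D2:**
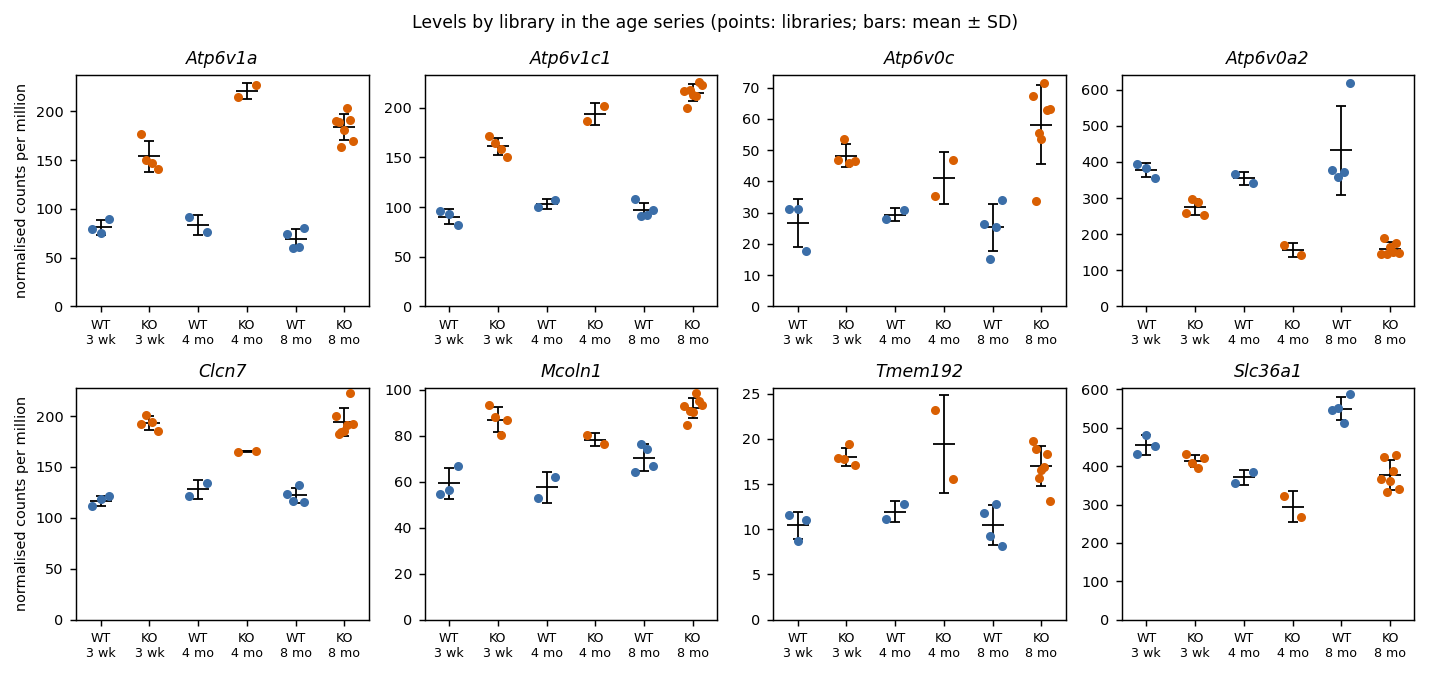
Level of 8 members in CPM, 1 point per library with bars for the mean and SD, in WT and SgshKO (KO) microglia at each age; each panel has its own axis. Atp6v1a and Clcn7 have every SgshKO point above the WT points of the same age, and Atp6v0a2 has every SgshKO point below them.

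The V0 sector was mixed. Of its 9 genes, 3 were higher and 1 lower at 3 weeks, 2 and 1 at 4 months, and 4 and 1 at 8 months. Atp6v0d1, which couples the central stalk to the proteolipid ring, was at 97.4, 105 and 108 CPM in WT and 145, 145, 160 and 151 CPM in SgshKO at 3 weeks. The 8-month WT libraries were at 80.5, 97.0, 83.5 and 74.2 CPM and the SgshKO libraries at 133 to 159 CPM. The groups did not overlap, and the log2 fold change was 0.54 ± 0.09 (edgeR adjusted p = 0.000126), 0.54 ± 0.11 (0.00147) and 0.74 ± 0.07 (1.06e-08). Atp6v0e, a small membrane subunit, was higher by 0.51, 0.98 and 0.87 on the log2 scale. Atp6v0b, a proteolipid of the rotor ring, had log2 fold changes of -0.01, -0.18 and 0.00 and was called at no age.

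Atp6v0c encodes the main proteolipid of the same ring. It was at 31.2, 31.2 and 17.6 CPM in WT and 46.8, 53.7, 45.8 and 46.5 CPM in SgshKO at 3 weeks (log2 fold change 0.86 ± 0.23, edgeR adjusted p = 0.0177). The library at 17.6 CPM was WT replicate 3, and leaving it out gave 0.64 with an adjusted p of 0.138. In the oldest mice it was at 26.3, 15.3, 25.5 and 34.0 CPM in WT and 33.6 to 71.4 CPM in SgshKO, and the groups overlapped slightly (1.22 ± 0.20, adjusted p = 1.91e-05). At 4 months it was at 27.9 and 30.8 CPM in WT and 35.3 and 46.9 CPM in SgshKO and was not called (0.49, adjusted p = 0.294). Atp6v0c has near-identical copies in the mouse genome, and how shared reads were counted is not given in the sources used here, so its level is uncertain.

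The a subunit, which forms the proton path and targets the pump to a membrane, is encoded by paralogs that did not move together. Atp6v0a2, at chr5:124629052-124724455 (mm10), was at 394, 384 and 356 CPM in WT and 260, 298, 289 and 252 CPM in SgshKO at 3 weeks. At 4 months it was at 367 and 342 CPM in WT and 171 and 142 CPM in SgshKO. At 8 months it was at 377, 359, 373 and 618 CPM in WT and from 144 to 189 CPM in SgshKO, with a median of 151. The genotypes were apart at every age, with SgshKO the lower. The log2 fold change was -0.46 ± 0.14 (edgeR adjusted p = 0.0385), -1.18 ± 0.19 (6.51e-05) and -1.44 ± 0.11 (2.42e-10). The 3-week call was lost, so that 0 members were lower (1 at an unadjusted p under 0.05 and 1 by DESeq2 with all libraries), without any 1 of the 3 WT libraries or of SgshKO replicates 1, 3 and 4.

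Tcirg1, the a3 paralog of lysosomes and osteoclasts, was at 690, 752 and 659 CPM in WT and 634, 765, 710 and 747 CPM in SgshKO at 3 weeks, and at 694 to 753 CPM and 671 to 827 CPM at 8 months. Those ranges overlap, and its log2 fold changes of 0.03, -0.07 and 0.11 were not called. Atp6v0a1 was at 310, 277 and 318 CPM in WT and 372, 369, 367 and 377 CPM in SgshKO at 3 weeks and was called at no age (0.30, 0.24 and -0.05). In TPM, which is per length, Atp6v0a2 made up 17.3% of the summed a-subunit transcripts in WT and 12.5% in SgshKO at 3 weeks. It made up 16.8% and 8.09% at 4 months, and 18.5% ± 3.39 (SD, n = 4) and 7.51% ± 1.10 (SD, n = 7) at 8 months. The Tcirg1 share at 8 months was 62.1% ± 6.44 in WT and 71.99% ± 1.77 in SgshKO.

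**Figure D3:**
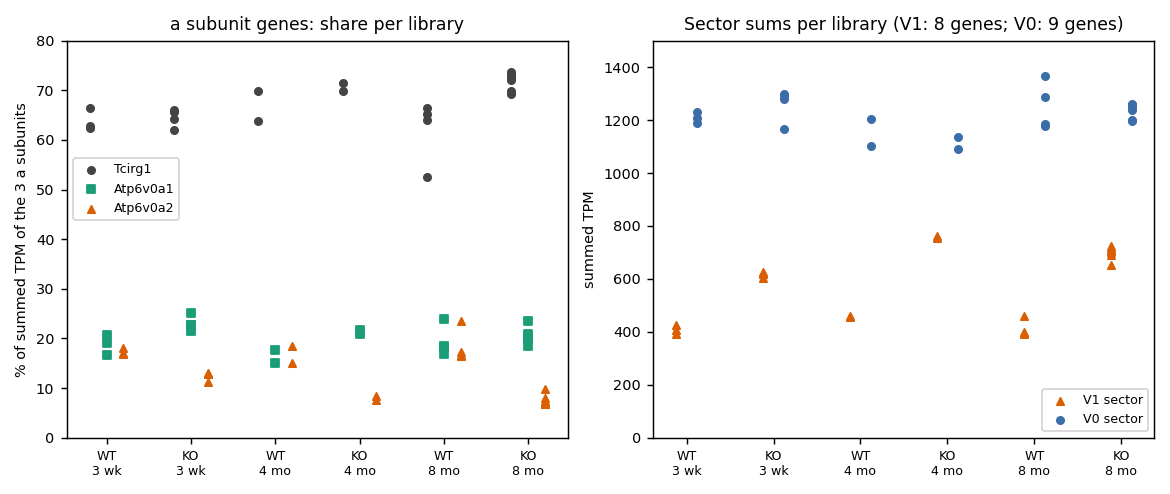
Share of the summed TPM of the a-subunit paralogs held by Atp6v0a1, Atp6v0a2 and Tcirg1, in percent, on the left, and the summed TPM of the V1 and V0 genes on the right, 1 point per library, by genotype and age (KO is SgshKO). Atp6v0a2 holds 17.3% in WT and 12.5% in SgshKO at 3 weeks, and 18.5% and 7.51% at 8 months.

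Summed over their genes, V1 transcripts were at 408 ± 16.6 TPM (SD, n = 3) in WT and 618 ± 9.79 TPM (n = 4) in SgshKO at 3 weeks, and at 412 ± 32.6 TPM (n = 4) and 700 ± 23.5 TPM (n = 7) at 8 months. The V0 sum was at 1255 ± 90.8 TPM in WT and 1237 ± 26.9 TPM in SgshKO at 8 months. The V1 ranges of the genotypes did not overlap, at 393 to 461 TPM against 653 to 724 TPM at 8 months, while the V0 ranges did, at 1177 to 1368 TPM against 1196 to 1260 TPM. Per length in the age series, Tcirg1 (418 ± 13.8 TPM) and Atp6v0b (383 ± 23.0 TPM) were the most abundant members in WT microglia at 8 months. Atp6ap1 (246 ± 11.3 TPM) followed, and Atp6v0c, whose level is uncertain, was at 33.6 ± 11.5 TPM. Another order was seen in the SgshKO antisense experiment, in CPM, which is not per length, with ntc in grp 1. There Atp6v0c was at 894, Atp6v0a1 at 265, Atp6v0b at 210, Tcirg1 at 182 and Atp6v0a2 at 155 CPM. Those libraries differ from the WT 8-month libraries in genotype, treatment and unit, so the orders are not a like comparison. The ranking, the V0 sum and the a-subunit shares are given for the age series values only. Tcirg1 and Atp6v0b are both V0 genes that were called at no age.

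Both accessory subunits were higher in the young and the 4-month mice. Atp6ap1, which helps assemble the V0 sector, had log2 fold changes of 0.41, 0.51 and 0.56 (edgeR adjusted p = 0.000273, 0.000238 and 2.6e-08). Atp6ap2, the prorenin receptor, was at 171, 154 and 160 CPM in WT and 212, 226, 211 and 211 CPM in SgshKO at 3 weeks (0.41 ± 0.09, adjusted p = 0.00215). By 8 months it stood at 180 to 197 CPM in WT and 157 to 196 CPM in SgshKO, which overlap, and it was not called (-0.13 ± 0.07, adjusted p = 0.157). On TPM it was called lower at 8 months (-0.27, adjusted p = 0.00301).

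Of the 6 cation channels, 2 were higher at 3 weeks, 1 at 4 months and 4 at 8 months. The chloride exchangers Clcn3, Clcn6 and Clcn7 and the partner Ostm1 make 4 genes, of which 1 was higher at each age. No gene of either set was lower. Clcn7, the lysosomal chloride-proton exchanger (chr17:25133391-25162103, mm10), was at 111, 118 and 121 CPM in WT and 192, 201, 194 and 186 CPM in SgshKO at 3 weeks. It was at 122 and 135 CPM in WT and 165 and 166 CPM in SgshKO at 4 months. The 8-month libraries were at 123, 117, 132 and 116 CPM in WT and 183 to 222 CPM in SgshKO. The genotypes were apart at each age, with log2 fold changes of 0.72 ± 0.08 (edgeR adjusted p = 4.76e-07), 0.37 ± 0.10 (0.012) and 0.67 ± 0.06 (8.32e-09). Its 4-month call did not hold with WT replicate 1 (0.31, adjusted p 0.131), SgshKO replicate 1 (0.33, 0.0733) or SgshKO replicate 2 (0.31, 0.125) left out. Ostm1, the beta subunit that CLC-7 needs, had log2 fold changes of 0.27, 0.16 and 0.08 and was called at no age, as were the endosomal exchangers Clcn3 and Clcn6.

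Mcoln1 encodes TRPML1, the calcium and iron release channel of lysosomes (chr8:3500519-3515231, mm10). It was at 54.4, 56.5 and 66.7 CPM in WT and 93.1, 87.9, 80.1 and 86.7 CPM in SgshKO at 3 weeks. By 8 months the level was 64.2, 76.4, 74.2 and 66.6 CPM in WT and 84.7 to 98.4 CPM in SgshKO. The groups did not overlap, and the log2 fold change was 0.55 ± 0.09 (edgeR adjusted p = 0.000136), 0.44 ± 0.12 (0.00976) and 0.39 ± 0.07 (0.000157). At 4 months the call did not hold with WT replicate 1 left out (0.34, 0.147), SgshKO replicate 1 (0.37, 0.094) or SgshKO replicate 2 (0.43, 0.0673), with adjusted p second in each pair. Tpcn1, a sodium and calcium channel of endosomes and lysosomes, was higher only at 8 months by this test (0.37 ± 0.10, adjusted p = 0.0048), where WT libraries lay between 166 and 305 CPM and SgshKO between 295 and 356 CPM. Tpcn2 and the proton and potassium channel Tmem175 were called at no age.

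The TRPML1 relatives Mcoln2 and Mcoln3, neighbours on chromosome 3, and the pump isoform Atp6v0d2 were near absent in WT. Mcoln2 (chr3:146149833-146195511, mm10) had 0 counts in all 9 WT libraries of the age series. In SgshKO it was at 0.712, 0.190, 0.194 and 0.511 CPM at 3 weeks, 0 and 0.602 CPM at 4 months and 0.542 to 3.19 CPM at 8 months. Every SgshKO library at 3 weeks and 8 months was above every WT library. Its pooled SgshKO level was set against a floor of 3 counts over the WT group. It was 6.89 times that floor at 3 weeks, 2.64 times at 4 months and 32.2 times at 8 months. The floor leaves out counting error and spread in SgshKO. The 4-month value rests on 7 SgshKO counts, with a library at 0. The edgeR adjusted p was 0.0284, 0.112 and 0.000174. The 3-week call was lost without any 1 WT library of that age or without SgshKO replicate 1 or 4 (adjusted p = 0.0525 to 0.0957).

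Mcoln3 had 1 count in the WT 8-month group, in replicate 1, and 158 in SgshKO, a ratio of 80.5 with a counting interval from 14.2 to 3198 (95%, exact, counting error only; edgeR adjusted p = 0.0017). At 4 months it was at 0 and 1.81 CPM in SgshKO, so 1 of 2 libraries carried all its counts. Atp6v0d2, the d2 paralog of osteoclasts and some macrophages, had 10 counts in WT and 4 in SgshKO at 3 weeks. At 8 months it had 0 counts in WT and 152 in SgshKO, with each SgshKO library between 0.920 and 1.58 CPM (edgeR adjusted p = 0.000265). Its pooled SgshKO level was 25.8 times a floor of 3 counts over the WT group. Its paralog Atp6v0d1 stood at 133 to 159 CPM in the same libraries. Mcoln2, Mcoln3 and Atp6v0d2 passed the filter on low counts through their SgshKO libraries, the group in which they are high. Their adjusted p-values are therefore not independent of that filter, and the counts of members called higher at 8 months include them. Without the filter, the 8-month call of each was kept. Atp6v0e2 had 17 counts in each genotype at 3 weeks and was called at no age.

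**Figure D4:**
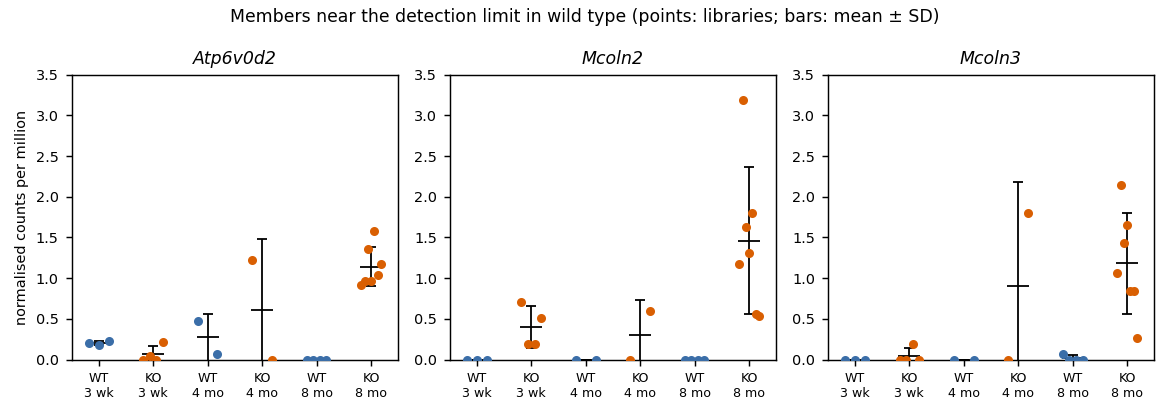
Level of Atp6v0d2, Mcoln2 and Mcoln3 in CPM, 1 point per library with bars for the mean and SD, by genotype and age (KO is SgshKO). Mcoln2 is at 0 in all 9 WT libraries and at 0.542 to 3.19 CPM in the 7 SgshKO libraries at 8 months.

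The carriers moved in both directions. Ctns, the cystine exporter, was at 98.6, 100 and 116 CPM in WT and 153, 146, 147 and 152 CPM in SgshKO at 3 weeks (log2 fold change 0.51, edgeR adjusted p = 0.000397). It was higher by 0.25 at 8 months (adjusted p = 0.00956), with overlapping groups. Slc17a5, which exports sialic acid, was higher at 3 weeks (0.45, adjusted p = 0.015) and 8 months (0.49, 0.000297), and Cln3, a membrane protein mutated in juvenile Batten disease, at 3 weeks (0.37, 0.00513) and 8 months (0.23, 0.0117). On TPM, the 8-month calls of Ctns (0.11, adjusted p = 0.211) and Cln3 (0.08, 0.289) were lost. Tmem192, a membrane protein used to tag lysosomes, was at 11.6, 8.73 and 11.0 CPM in WT and 17.9, 17.8, 19.5 and 17.1 CPM in SgshKO at 3 weeks. Its log2 fold change was 0.79, 0.69 and 0.70 (adjusted p = 0.00453, 0.042 and 0.000536). Leaving out WT replicate 1 (0.61, adjusted p 0.226), WT replicate 2 (0.81, 0.11) or SgshKO replicate 1 (0.34, 0.43) ended the 4-month call, as did leaving out the filter on low counts (adjusted p 0.0705) and the use of log2(TPM + 1) (0.0568) or log2(TPM + 0.1) (0.0603).

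The members lower in SgshKO besides Atp6v0a2 in the main edgeR fit were amino acid and peptide carriers, at 8 months. Slc36a1, a proton-coupled exporter of small amino acids, was at 432, 482 and 452 CPM in WT and 432, 408, 395 and 422 CPM in SgshKO at 3 weeks. By 8 months it was at 548, 552, 514 and 588 CPM in WT and 332 to 428 CPM in SgshKO. The groups were apart at 8 months (log2 fold change -0.55 ± 0.07, edgeR adjusted p = 1.74e-06). Slc38a9, the arginine sensor that signals to mTORC1, was at 115, 86.4, 116 and 118 CPM in WT and 58.8 to 90.8 CPM in SgshKO (-0.57 ± 0.11, adjusted p = 0.000189). Slc15a4, a histidine and peptide carrier of immune cells, was at 139 to 179 CPM in WT and 89.3 to 161 CPM in SgshKO (-0.35 ± 0.12, adjusted p = 0.0235). The latter pair overlapped between genotypes. Slc15a3, Slc29a3 and Mfsd8 were called at no age in the main fit. Slc29a3 was called lower at 4 months by edgeR without the filter (-0.42, adjusted p = 0.0434). With limma on log2(TPM + 1) it was called lower at 4 months (-0.52, adjusted p = 0.0211) and at 8 months (-0.25, 0.0407). That limma fit also called Slc36a1 lower at 4 months (-0.42, adjusted p = 0.0221).

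The same members were not called at every age. Of the pump genes, 10 were higher at all 3 ages (Atp6v1a, Atp6v1b2, Atp6v1c1, Atp6v1d, Atp6v1e1, Atp6v1f, Atp6v1g1, Atp6v0d1, Atp6v0e and Atp6ap1) and Atp6v0a2 was lower at all 3. Of the channels and transporters, Clcn7, Mcoln1 and Tmem192 were higher at all 3, with 4-month calls that a left-out library could end, as given above. The test of the difference itself, the genotype effect at 8 months minus that at 3 weeks, called 2 members higher and 3 lower, against 5.98% and 3.26% of all genes. Atp6v1a had a genotype effect larger by 0.50 ± 0.14 (edgeR adjusted p = 0.0247), and Atp6v0d2 also rose more, with a fitted value that rests on counts of 0. Atp6v0a2 (-0.97 ± 0.18, adjusted p = 0.000957), Atp6ap2 (-0.53 ± 0.11, 0.00238) and Slc36a1 (-0.41 ± 0.12, 0.0283) had a more negative effect at 8 months. On TPM the Atp6v1a difference was 0.41 (adjusted p = 0.087). The Slc36a1 difference passed the test no longer with WT 3-week replicate 1 (-0.38, 0.0762 adjusted p) or replicate 3 (-0.42, 0.0517) left out, with SgshKO 3-week replicate 4 left out (-0.40, 0.0531), without the 2 neutrophil-high libraries (-0.38, 0.0508), or with Ddx3y minus Xist in the model (-0.39, 0.0512).

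In WT microglia alone, few members differed between 3 weeks and 8 months. By edgeR, 3 were lower at 8 months and none was higher (4 at an unadjusted p under 0.05, 2 by DESeq2). Of all genes, 4.63% were lower and 3.02% higher. The 3 members were Atp6v0d1 (log2 fold change -0.30 ± 0.09, edgeR adjusted p = 0.029), Clcn3 (-0.35 ± 0.10, 0.0381) and the nucleoside carrier Slc29a3 (-0.54 ± 0.12, 0.00393). The summed level of sex-linked transcripts was 1916 to 2387 CPM in the WT 3-week libraries and 225 to 327 CPM in the WT 8-month libraries. The ages did not overlap in this sum, so age and sex make-up cannot be told apart in this comparison. The sum holds Xist and Y-linked transcripts together and does not give the sex of a library. With the difference of Ddx3y and Xist in the model, 1 of the 3 calls was kept, that of Clcn3. The Atp6v0d1 call was lost without WT 3-week replicate 2 or 3 or WT 8-month replicate 1, 3 or 4 (-0.30 to -0.26, adjusted p 0.0567 to 0.148). That of Clcn3 was lost without any 1 WT 3-week library or WT 8-month replicate 1, 2 or 4 (-0.36 to -0.32, adjusted p 0.0695 to 0.121).

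Other genes of the same machinery were read from lists outside the 39. Of 11 tested genes for pump assembly and regulation, 3 were higher and 1 lower in SgshKO at 3 weeks, 1 and 1 at 4 months, and 5 and 1 at 8 months. The lower gene at each age was Rogdi, a subunit of the RAVE-like assembly complex (log2 fold change -0.38, -0.56 and -1.06), while its partners Dmxl2 (0.32) and Wdr7 (0.26) were higher at 8 months. Of 19 other tested genes of lysosomal transport, 8 were higher and 1 lower at 3 weeks, 5 and 1 at 4 months, and 10 and 3 at 8 months. For both lists, the shares of all genes called higher and lower were 5.31% and 3.72% at 3 weeks. They were 10.3% and 9.26% at 4 months, and 21.6% and 18.9% at 8 months. The pump assembly and regulation counts at 4 months are near those shares. Npc2, which hands cholesterol to the lysosomal membrane, was the highest (1.66 ± 0.08, edgeR adjusted p = 1.1e-14 at 8 months), followed by the ATP-gated channel P2rx4 (1.16) and Mfsd1 (1.05). Tmem63a was the lowest (-0.75).

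In WT mice each ASO lowered its target relative to the ntc ASO, with log2 fold changes of -4.81 for Mitf, -3.24 for Tfeb and -2.38 for Tfe3. In the age series Mitf had been higher in SgshKO (0.47, 0.61 and 0.84 at the 3 ages), while Tfeb and Tfe3 were not called. The control ASO against PBS called 0 members in either direction by edgeR (0 higher and 1 lower at an unadjusted p under 0.05, 0 and 0 by DESeq2), and 0% of all genes in either direction. The 3 knockdowns are each set against the same 4 ntc libraries. Atp6v0c was at 25.3 CPM in WT at 8 months in the age table and at 434 CPM in the ntc libraries here. For such differences, levels are otherwise not compared between the tables.

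Mitf knockdown raised 10 of the 35 listed members, 8 pump genes and 2 channels or transporters, and lowered 0 (1 at an unadjusted p under 0.05, 0 by DESeq2). Of all genes, 5.77% were higher and 5.21% lower. The median log2 fold change was 0.22 for the pump, 0.07 for channels and transporters and -0.01 for all genes. Atp6v0c was at 486, 436, 423 and 392 CPM with the ntc ASO and 640, 597, 553 and 505 CPM with the Mitf ASO, without overlap, as were 7.67% of all genes (0.40 ± 0.05, edgeR adjusted p = 8.83e-05). Atp6v1g1 was at 129, 111, 102 and 81.1 CPM and at 166, 159, 136 and 116 CPM, higher in 4 of 4 pairs of the same numbered group (0.45 ± 0.06, adjusted p = 0.000173). Atp6ap1 was at 606, 585, 522 and 588 CPM and at 790, 783, 700 and 715 CPM, again without overlap (0.38 ± 0.05, adjusted p = 7.67e-05).

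The other pump genes raised by the Mitf ASO were Atp6v1c1 (log2 fold change 0.31), Atp6v1e1 (0.28), Atp6v1f (0.26), Atp6v0d1 (0.25) and Atp6v1b2 (0.21). The channel or transporter genes were Clcn7, at 139, 124, 126 and 111 CPM with ntc and 178, 153, 149 and 133 CPM with the Mitf ASO (0.29 ± 0.06, edgeR adjusted p = 0.0026), and Cln3, at 83.6 to 84.5 CPM and 93.3 to 108 CPM (0.29 ± 0.06, 0.00276). Atp6v1a (0.28, adjusted p = 0.0848) and Mcoln1 (0.19, 0.0741) were not called, although each was higher in 4 of 4 pairs. With limma on the authors' batch-corrected signal, Mcoln1 was called higher (0.33, adjusted p = 0.029). Without the replicate block, 3 members were called, and Atp6v1g1 (0.45, adjusted p = 0.177) and Clcn7 (0.30, 0.149) were not among them. Microglia markers summed to 60592 to 64072 CPM with ntc and 57194 to 59589 CPM with the Mitf ASO; their part in the result was not tested.

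**Figure D5:**
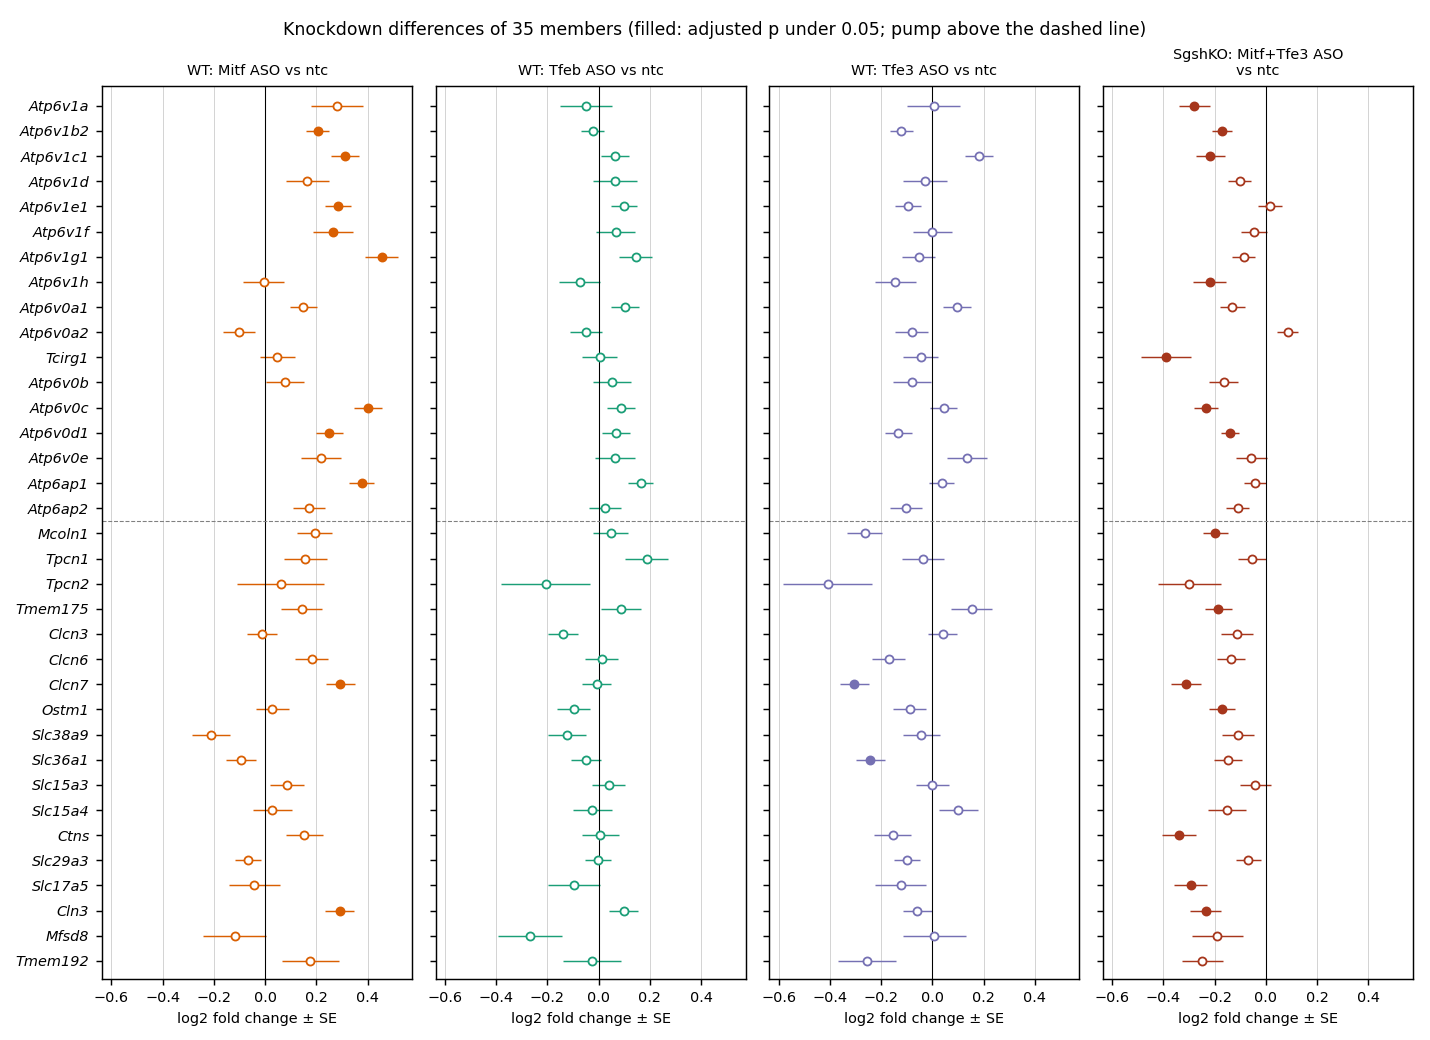
Log2 fold change with its SE for the 35 listed members with the Mitf, Tfeb or Tfe3 ASO in WT mice and with the Mitf and Tfe3 ASOs in SgshKO mice, each against its own ntc ASO libraries; filled points passed the edgeR test at an adjusted p under 0.05. The Mitf ASO has 10 members called higher, and the combination has 14 called lower.

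Tfeb knockdown called 0 members in either direction by edgeR (3 higher and 2 lower at an unadjusted p under 0.05, 0 and 0 by DESeq2), with 0.564% of all genes higher and 0.214% lower. Tfe3 knockdown called 0 higher (1 at an unadjusted p under 0.05, 0 by DESeq2) and 2 lower, with 1.46% and 0.701% of all genes. Clcn7 was at 110, 108, 96.4 and 89.3 CPM with the Tfe3 ASO, all below the 4 ntc libraries, where 4.68% of all genes did not overlap (-0.31 ± 0.06, edgeR adjusted p = 0.00743). Slc36a1 was at 109, 131, 142 and 152 CPM with the Tfe3 ASO and 123, 144, 187 and 183 CPM with ntc, lower in 4 of 4 pairs (-0.24 ± 0.06, adjusted p = 0.0354). That call was lost when any 1 of these 8 libraries was left out (-0.26 to -0.19, adjusted p = 0.0607 to 0.155), and without the replicate block the 2 calls became 0 (Clcn7 -0.31, adjusted p = 0.379). Mcoln1 was at 27.9, 23.0, 27.2 and 26.4 CPM against 31.5, 30.6, 31.9 and 31.0 CPM with ntc, apart but not called (-0.26, adjusted p = 0.0529).

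The knockdowns were also set against each other directly. With the Mitf ASO, 13 members were higher than with the Tfe3 ASO and 0 lower (1 at an unadjusted p under 0.05, 0 by DESeq2), against 2.63% and 1.13% of all genes. Of the 13, 7 were pump genes and 6 channels or transporters. Clcn7 differed by 0.60 ± 0.06 (edgeR adjusted p = 2.91e-06), Atp6v1g1 by 0.51 ± 0.06 (7.04e-05), Mcoln1 by 0.46 ± 0.07 (0.000446) and Atp6v0d1 by 0.38 ± 0.05 (0.000234). For Clcn7, the Mitf ASO libraries at 133 to 178 CPM and the Tfe3 ASO libraries at 89.3 to 110 CPM did not overlap, as for 5.53% of all genes. The ntc libraries, at 111 to 139 CPM, lay above the Tfe3 ASO libraries and overlapped the Mitf ASO libraries. Tmem192 differed by 0.43 ± 0.11 (adjusted p = 0.0395) and was lost without Mitf replicate 1, 2 or 3 or without any 1 Tfe3 library (0.29 to 0.47, adjusted p = 0.0685 to 0.186). Without the replicate block, 5 of the 35 were called.

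Against the Tfeb ASO, 6 members were higher with the Mitf ASO, among 1.67% of all genes higher and 1.86% lower. Atp6v0c (0.31 ± 0.05, edgeR adjusted p = 0.0027), Atp6v1g1 (0.31 ± 0.06, 0.0117) and Clcn7 (0.30 ± 0.06, 0.00679) led them. The count was 3 without Mitf replicate 2, Tfeb replicate 2 or Tfeb replicate 3, 11 without Tfeb replicate 1, and 0 without the replicate block. Between the Tfeb and Tfe3 ASOs, Mcoln1 (0.31 ± 0.07, adjusted p = 0.0313) and Clcn7 (0.30 ± 0.06, 0.0115) were higher with the Tfeb ASO, against 1.07% of all genes higher and 0.555% lower. That count was 0 without Tfeb replicate 2 or 4 or Tfe3 replicate 1, 3 or 4, 1 without Tfeb replicate 3 or Tfe3 replicate 2, and 0 without the replicate block. The Mcoln1 call was lost when any 1 of these 8 libraries was left out (0.23 to 0.34, adjusted p = 0.0502 to 0.123) and on the batch-corrected signal (0.35, 0.0559). That of Clcn7 was lost without the 5 libraries named for a count of 0 (0.27 to 0.29, adjusted p = 0.0544 to 0.0755).

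In SgshKO mice, the Mitf and Tfe3 ASOs together lowered 14 of 35 members, 7 pump genes and 7 channels or transporters, and raised 0 (0 at an unadjusted p under 0.05, 0 by DESeq2). Of all genes, 4.84% were higher and 4.5% lower, and the targets were at -2.26 (Mitf) and -1.08 (Tfe3) on the log2 scale. Of the 35, 33 had a negative log2 fold change, with medians of -0.13 for the pump, -0.18 for channels and transporters and 0.00 for all genes. The other two were Atp6v1e1 (0.02) and Atp6v0a2 (0.08), which were not called. The changes were small in size, from -0.39 to -0.14 among those called.

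Clcn7 was at 159, 178 and 198 CPM with ntc (lowest, median and highest of 8) and at 128, 146 and 163 CPM with the combination, overlapping slightly (-0.31 ± 0.06, edgeR adjusted p = 0.00301). Ctns was at 137, 160 and 191 CPM and at 114, 123 and 158 CPM (-0.34 ± 0.07, adjusted p = 0.0047). Slc17a5 was at 33.9, 43.3 and 49.96 CPM and at 29.7, 35.3 and 45.6 CPM (-0.29 ± 0.06, adjusted p = 0.00889). The other channel or transporter genes lowered were Cln3 (-0.24), Mcoln1 (-0.20), Tmem175 (-0.18) and Ostm1 (-0.17), so the exchanger Clcn7 and its partner Ostm1 both fell. In the pump, Atp6v1a was at 334, 371 and 448 CPM with ntc and at 287, 315 and 359 CPM with the combination (-0.28 ± 0.06, adjusted p = 0.00732). Atp6v0c (-0.23 ± 0.05, adjusted p = 0.00491), Atp6v1c1 (-0.22), Atp6v1h (-0.22), Atp6v1b2 (-0.17) and Atp6v0d1 (-0.14) were lower as well.

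Tcirg1 had the lowest log2 fold change (-0.39 ± 0.10, edgeR adjusted p = 0.0169), and it differed between the 2 numbered groups. In grp 1 its mean was 181.9 CPM with ntc and 166.2 CPM with the combination, and in grp 2 184.8 and 117.9 CPM. In grp 1 alone the value was -0.11 (adjusted p = 0.428), and on the authors' batch-corrected values it was -0.26 (0.103). Atp6v1a went the other way, from 424.0 to 314.9 CPM in grp 1 and from 347.6 to 317.6 CPM in grp 2, where alone it was -0.14 (adjusted p = 0.111). Clcn7 went from 183.7 to 145.7 CPM in grp 1 and from 174.6 to 142.7 CPM in grp 2. Whether the groups differ in these effects was not tested. With 4 libraries an arm, 1 member was called in grp 1 alone and 6 in grp 2 alone, and without a term for grp 5 were called. Neutrophil genes summed to at most 42.3 CPM in grp 1 and to 71.3 to 564 CPM in grp 2, and their part was not tested.

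Across experiments with separate libraries, the calls overlapped in part. Of the 35 members listed in the antisense tables, 18 were higher in SgshKO at 8 months. Of these 18, 10 were lowered by the combination in SgshKO mice, which is 55.6% of the 18 and 71.4% of the 14. These were Atp6v1a, Atp6v1b2, Atp6v1c1, Atp6v0c, Atp6v0d1, Clcn7, Mcoln1, Ctns, Slc17a5 and Cln3. The 10 members raised by the Mitf ASO in WT mice were all among the 18 (55.6% of the 18). Of those 10, 6 were lowered by the combination in SgshKO mice: Atp6v0c, Atp6v0d1, Atp6v1b2, Atp6v1c1, Clcn7 and Cln3. The same counts were made over all genes tested in both tables. Of 2339 genes higher at 8 months, 248 were lowered by the combination (10.6%), which is 53.0% of the 468 it lowered. Of 577 genes raised by the Mitf ASO, 490 were higher in SgshKO at 8 months (84.9%). Of 590 genes raised by the Mitf ASO, 82 were lowered by the combination (13.9%). No test of these overlaps was made.

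Of the 8 members with the extended E-box, 6 were higher and 0 lower in SgshKO at 3 weeks, 5 and 0 at 4 months, and 6 and 1 at 8 months. Of the 23 with a promoter window without it, 10 were higher and 0 lower, 6 and 0, and 10 and 2. Atp6v0a2, lower at every age, had no promoter window and is in neither set. With the combination in SgshKO mice, 5 of the 8 and 6 of the 20 listed others were lower, with median log2 fold changes of -0.17 and -0.16. The 2 members lowered by the Tfe3 ASO, Clcn7 and Slc36a1, both hold it, with calls that other settings ended, as given above. The Mitf ASO raised 3 of the 8 and 4 of the 20 and lowered 0 of either. Its median log2 fold changes were 0.23 and 0.11. Outside the 39, the Mitf ASO raised 6 of the 19 other lysosomal transport genes and lowered 1, against 5.77% and 5.21% of all genes. These ran from Npc2 (0.72 ± 0.05, edgeR adjusted p = 4e-08) to Clcn5 (-0.26). The combination raised 1 and lowered 7 of that list, against 4.84% and 4.5% of all genes. Npc2 was at 0.19 and Spns1, the lysophospholipid carrier, at -0.30.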

How the data were processed

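PolyA RNA-seq counts, made before deposit, were the main measurement. Per the submitters' processing notes, STAR 2.5.3a, kallisto 0.44.0, HOMER 4.11, DESeq2 1.36.0 and R 4.2.3 were used with build mm10; which tool made which table, and how shared reads were counted, is not given in the sources used here. The libraries were dUTP-stranded and single-end, per the labels' protocols. The authors deposited raw counts, TPM for the age series, and a normalised, batch-corrected signal for the antisense experiments. In all, 0 columns belonged to no sample.

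The members and gene lists were chosen with earlier results of these data known. Each count table was fitted whole with edgeR 4.0.16 (R 4.3.3; TMM, filterByExpr with a minimum count of 10, quasi-likelihood test, Benjamini-Hochberg adjusted p threshold 0.05). SE is the log2 fold change over the square root of F. CPM uses TMM-scaled library sizes, and n is the group size in the text. The age model had group means only. The WT antisense model had the numbered group as a replicate block and the SgshKO antisense model a term for grp. Same-numbered WT antisense libraries deviated together (correlations 0.122 to 0.640 over 28 pairs), so the numbers were taken to pair the samples. Libraries of unlike number were not compared there. Those of the same number in the age series did not all deviate together (-0.171 to 0.115), so they were not taken to pair. Those of the SgshKO antisense experiment all did (0.0880 to 0.612 in grp 1 and 0.0839 to 0.156 in grp 2). Libraries of unlike number had median correlations of -0.105 in grp 1 and -0.0412 in grp 2. The main SgshKO antisense model still had grp only. A replicate block was an alternative, with its count of called members given below. The title and the column name of PBS replicate 4 disagree on its numbered group (4 and 3); the title was used, and with 3 the Tfe3 ASO lowered 3 members rather than 2 and the other counts of members stayed. The fit was tested on simulated data.

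No replicates of the same group were duplicates: the lowest chi-square per degree of freedom between them was 8.29. Libraries of unlike groups were not compared in this way. The text names, for each comparison, called members past a log2 fold change of 1 and the 3 largest of each class. Members outside this rule that are named for their role or paralogs, and those that were not called, were chosen after their values were seen. Alternatives were RLE size factors, DESeq2 1.42.0, no filter, limma 3.58.1 on log2(TPM + 1) and log2(TPM + 0.1) at a mean TPM of at least 1 or on log2(batch-corrected signal + 1), the block or grp term changed, a Ddx3y minus Xist covariate, and leaving out each library. The fit without the 2 libraries highest in neutrophil genes was added after seeing the data. Counting intervals cover counting error only.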

Additional observations from a re-analysis of the deposited data

Results flagged for a closer look

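Libraries that stood apart were looked for in 127 sets of 1 gene in 1 group, for 15 of the members, and 7 were found; chance alone flags about 1 in 20 such sets. Atp6v0a2 was at 618 CPM in 1 WT 8-month library, the next being at 377. In the SgshKO 8-month group, Atp6v0a1 was at 389 CPM in 1 library (next 335) and Tcirg1 at 671 CPM in 1 library (next 761). Atp6v0c was at 53.7 CPM in 1 SgshKO 3-week library (next 46.8). Mcoln3 was at 0.194 CPM in 1 SgshKO 3-week library and at 0.0694 CPM in 1 WT 8-month library, with the others of each group at 0. Atp6v1c1 was at 116 CPM in 1 SgshKO library with the Mitf and Tfe3 ASOs (next 100.05).

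The genotype effect differed between 8 months and 3 weeks, by the edgeR test of that difference, for 5 members. It was larger at 8 months for Atp6v1a (0.50, adjusted p = 0.0247) and Atp6v0d2 (8.80, 0.0036; a fitted value that is no bound, since the WT 8-month libraries are at 0). It was more negative for Atp6v0a2 (-0.97, adjusted p = 0.000957), Atp6ap2 (-0.53, 0.00238) and Slc36a1 (-0.41, 0.0283).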

How the results depend on the processing

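No called member followed through the alternatives changed direction. Members that were not called could, as Tcirg1 at 8 months did from 0.11 to -0.03 on log2(TPM + 1). Of 352 values under other settings 315 kept their call and 37 lost it, and of 495 values with 1 library left out 431 kept it and 64 lost it. Counts of called members moved by over 1.5 times in the following cases. With DESeq2, 3 members were lower at 4 months, 4 had a larger genotype effect at 8 months, 2 were higher and 5 lower with age in WT, 10 were higher with the Mitf than the Tfeb ASO and 4 with the Tfeb than the Tfe3 ASO. Without the filter 2 were lower at 4 months; on log2(TPM + 1) and log2(TPM + 0.1) 3 were lower at 4 months and 0 had a larger effect at 8 months, where members at low counts were not tested. With the Ddx3y minus Xist covariate 1 was lower with age in WT; that fit was not run for the WT antisense table, which does not list both genes.

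With the replicate block in the age series, 1 member had a larger effect at 8 months, and the calls of Mcoln2 at 3 weeks (adjusted p = 0.0859) and Clcn3 with age were lost. With no replicate block in the WT antisense experiment, counts fell to 3 (Mitf ASO, higher), 0 (Tfe3 ASO, lower), 0 (Mitf against Tfeb), 5 (Mitf against Tfe3) and 0 (Tfeb against Tfe3). For the combination in SgshKO mice, the replicate block left 14 lower, and 5 were lower with no grp term, 1 in grp 1 alone and 6 in grp 2 alone, which have fewer samples.

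Leaving out 1 library gave 0 to 1 lower at 3 weeks, and 9 to 12 higher and 1 to 4 lower at 4 months (9 without SgshKO replicate 2, 4 without SgshKO replicate 1), where the lone sample left in an arm is assumed to vary like the other groups. The difference of effects had 1 to 5 higher (5 without WT 8-month replicate 1; 1 without replicate 2 or 3 or SgshKO 3-week replicate 4) and 2 to 5 lower (5 without WT 8-month replicate 2). WT age had 0 to 1 higher and 1 to 2 lower (1 higher without WT 3-week replicate 3; 1 lower without replicate 2 or 3). Mitf against Tfeb had 3 to 11 higher, Tfeb against Tfe3 0 to 2 higher and 0 to 1 lower (1 without Tfeb replicate 1), and the Tfe3 ASO 1 to 1 lower. The 4-month calls rest on 2 libraries an arm. For Mcoln2, and for Atp6v0d2 at 8 months, all WT libraries are at 0, so the fold is set against a floor. That fold leaves out counting error and spread in the SgshKO libraries. The cause of these changes was not tested.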
